A study of Mus musculus with 2 samples.

Results

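The interleukin-1 (IL-1) family and its receptors were followed through every cell class of CD45+ leukocytes sorted from mouse liver tumours. The 10 genes were taken by symbol from the 32285 features of the count matrices, as 5 genes for ligands or a soluble antagonist (Il1a, Il1b, Il1rn, Il18, Il33) and 5 for receptors (Il1r1, Il1r2, Il1rap, Il18r1, Il1rl1). They were chosen by name. All 10 were detected, and none of them was used to cluster or name the cells.

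The tumours were of RIL-175 cells, a luciferase-carrying mouse line of hepatocellular carcinoma implanted in the livers of C57BL/6 mice fed an MCD diet, a fatty liver model. The AKK library came from mice given 5e9 CFU of the gut bacterium Akkermansia muciniphila by mouth. The PBS library came from mice given the buffer alone, with the same strain, diet and tumour line. Dosing began 2 weeks before the diet, the diet preceded implantation by 2 weeks, and dosing paused for 6 days after surgery and then went on to the end. Each group had 1 library, so no difference has a replicate check and none was tested. How many mice stand behind a library is not stated in the labels. "Higher", "lower" and every ratio, AKK over PBS, describe these 2 libraries, and each 95% interval covers counting error only. RIL-175 is a single line, so the tumour cells stand for that line and not for liver cancers at large.

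The AKK library held 6610 barcodes with a median of 6488 UMIs (unique molecular identifiers, each counting 1 captured transcript), and the PBS library 5088 barcodes with a median of 6558.5. After filtering, 6177 AKK and 4646 PBS cells were kept in 34 clusters, and 19 classes were named from marker genes, each called "like" its type. Comparisons were made in the 12 classes that had 50 or more cells of both libraries. Levels are CPM, the gene's UMIs per 1000000 UMIs of the class. The libraries shared 8 barcode sequences. A class labelled tumour/epithelial cell-like passed the CD45 sort with 113 AKK and 160 PBS cells. It had Krt8, a keratin of simple epithelia, at 2084 and 2129 CPM, and Ptprc, which encodes CD45, at 43.8 and 27.9 CPM. B cell-like cells had Ptprc at 1342 and 1176 CPM. The epithelial marker Epcam and the hepatocyte marker Alb were near 0 in the tumour/epithelial cell-like class, with Epcam at 0.586 and 0.0862 CPM and Alb at 0.117 and 0.0862 CPM.

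IL-1α and IL-1β are agonists of the same receptor, IL-1R1, which needs the accessory protein IL-1RAP to signal through MyD88 and NF-κB. IL-1β is made as an inactive precursor that an inflammasome cuts, whereas the IL-1α precursor is already active when a damaged cell releases it. The antagonist encoded by Il1rn occupies IL-1R1 without signalling, and IL-1R2 is a decoy that binds IL-1 without signalling. IL-18 acts on lymphocytes through the receptor chain encoded by Il18r1, and IL-33, an alarmin of stromal and epithelial nuclei, acts through ST2, encoded by Il1rl1. In tumours, IL-1 is known for drawing in and sustaining myeloid cells.

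In the mm10 (GRCm38) build, the genes of both IL-1 agonists lie on the minus strand of chromosome 2, with Il1a (ENSMUSG00000027399) at chr2:129299610-129309972 and Il1b (ENSMUSG00000027398) at chr2:129364570-129371139, 54.6 kb apart. Il1rn (ENSMUSG00000026981) lies on the same chromosome at chr2:24336853-24351494. Il1r2 (ENSMUSG00000026073), Il1r1 (ENSMUSG00000026072), Il1rl1 (ENSMUSG00000026069) and Il18r1 (ENSMUSG00000026070) follow each other on the plus strand within 426.8 kb, chr1:40074079-40500854, with Il1rl2 as the other protein-coding gene of that span. Il1rap (ENSMUSG00000022514) is at chr16:26581704-26730117, Il18 (ENSMUSG00000039217) at chr9:50554827-50581840 and Il33 (ENSMUSG00000024810) at chr19:29925114-29960718. Il1b is overlapped on the other strand by Il1bos, Il1a by Gm14023 and Il18 by Bco2 and Tex12, Il1r2 by Gm16894 and Il1rap by Gm20319. Il1r1 and Il1r2 also have same-strand overlaps with Gm38070 and Gm37347, and the strand setting of the counting is not known.

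The promoters of Il1a and Il1b are shown because these neighbouring genes had different AKK over PBS ratios in the same cells. Each runs from 250 bases before to 50 bases after the transcription start in RefSeq on GRCm38.p6, minus strand, at chr2:129309923-129310222 and chr2:129371090-129371389. Capitals mark matches, on either strand, to a TATA box (TATAAA), an AP-1 motif (TGANTCA), a loose C/EBP motif (TTNNGNAA) or the NF-kB consensus.
Il1a promoter: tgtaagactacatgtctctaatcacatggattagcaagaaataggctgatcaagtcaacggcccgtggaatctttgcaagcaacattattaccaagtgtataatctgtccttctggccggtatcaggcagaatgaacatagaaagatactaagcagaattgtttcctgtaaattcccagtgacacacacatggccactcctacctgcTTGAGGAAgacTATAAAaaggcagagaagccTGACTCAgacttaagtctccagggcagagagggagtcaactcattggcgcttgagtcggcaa
Il1b promoter: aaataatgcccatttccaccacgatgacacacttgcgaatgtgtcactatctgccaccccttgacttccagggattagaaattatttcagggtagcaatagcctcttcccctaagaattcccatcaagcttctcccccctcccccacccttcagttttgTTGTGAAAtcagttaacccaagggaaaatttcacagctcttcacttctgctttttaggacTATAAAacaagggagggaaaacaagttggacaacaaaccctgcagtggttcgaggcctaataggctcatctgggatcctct
Both hold a TATA box, with its first base at position -32 in Il1a and -31 in Il1b, counted from the start site, and both hold a C/EBP match. The Il1a promoter also holds an AP-1 match at position -12, and Il1b has none in this window. The matches do not overlap each other. The same letters were found in 13.6% of all 32851 promoter windows for the TATA box, 7.81% for AP-1, 40.7% for C/EBP and 8.46% for NF-kB. All 10 members had promoter entries, 1 to 3 each. At least 1 entry held a TATA match in 5 of 10 members, AP-1 in 2, C/EBP in 6 and NF-kB in 1 (Il1r1). These counts are per gene, some with several windows, and are not on the scale of the shares per window. The TATA matches lay at -175 in Il18 and at 14 in Il1rn, away from the positions in Il1a and Il1b. A match is a description of letters and not a bound site.

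Neutrophil-like cells were the main source of Il1b, and held more of it in the AKK library. Over all kept cells Il1b was lower in AKK, at 2106 CPM against 2301 CPM in PBS (ratio 0.915, 0.908 to 0.922). Il1b was at 8455 CPM in AKK and 6947 CPM in PBS neutrophil-like cells, from 100145 and 82661 UMIs in 2570 and 2088 cells. These cells held 70.6% of the AKK and 59.9% of the PBS library's Il1b UMIs. The ratio was 1.22 (1.21 to 1.23), short of the 1.5-fold used as the call. The median neutrophil-like cell had 8119.8 CPM of Il1b in AKK and 7092 CPM in PBS, and the curves of Il1b over all neutrophil-like cells ran side by side. Each cell was thinned to 2299 UMIs (291 AKK and 175 PBS cells were shallower and fell away). After that, 94.3% of AKK and 94.9% of PBS neutrophil-like cells had an Il1b UMI (96.9% and 98.0% unthinned). The B cell-like class, which should lack Il1b, had one in 23.2% and 20.1% of cells at that depth. That level is read here as free RNA in the droplets, and the parts of free RNA and doublets in it were not tested.

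Macrophage-like cells came next, with Il1b at 2917 CPM in AKK cells and 3331 CPM in PBS cells (ratio 0.876, 0.861 to 0.890). Classical monocyte-like cells had 1443 and 2204 CPM, a ratio of 0.655 (0.634 to 0.676), past the 1.5-fold call. cDC2-like cells, the conventional dendritic cells that prime CD4 T cells, had 1356 and 1358 CPM, a ratio of 0.998 (0.95 to 1.05). With each library clustered alone the cDC2-like ratio was 0.652, past the call on the lower side. Granulocyte precursor-like cells had 259 and 315 CPM. The B, T and NK/ILC1-like classes compared were at or under 119.8 CPM in AKK and 135 CPM in PBS cells, with B cell-like cells at 119.8 and 100.9 CPM. Plasma cell-like cells had 289 and 232 CPM. Among these 4 myeloid classes (neutrophil-like, macrophage-like, classical monocyte-like and cDC2-like, high to low) the order was the same in both libraries.

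Among the classes compared, Il1a was highest in neutrophil-like, macrophage-like and classical monocyte-like cells. It was lower in the AKK library in monocyte-like and macrophage-like cells. Macrophage-like cells had 332 CPM in AKK cells and 690.1 CPM in PBS cells, from 2629 and 7789 UMIs, a ratio of 0.482 (0.461 to 0.504). Classical monocyte-like cells had 87.4 and 332 CPM, from 388 and 1396 UMIs, a ratio of 0.263 (0.234 to 0.294). Neutrophil-like cells had 627 and 632 CPM, a ratio of 0.992 (0.960 to 1.02) that did not differ from 1 beyond counting error. Neutrophil-like cells held 67.0% of the AKK library's Il1a UMIs and 42.3% of the PBS library's, and macrophage-like cells 23.7% and 43.9%. In AKK cells the macrophage-like level was below the neutrophil-like one, and in PBS cells it was above.

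Fewer AKK cells had the transcript at matched depth, and the median cell had less of it. Thinned to 4199 UMIs, with 41 AKK and 23 PBS cells left out, 20.6% of AKK (16.2 to 25.6) and 60% of PBS (53.9 to 65.8) classical monocyte-like cells had an Il1a UMI. Unthinned, the shares were 36.8% and 79.5%. B cell-like cells at that depth had 3.97% and 8.84%. The median classical monocyte-like cell had 0 CPM of Il1a in AKK cells and 251 CPM in PBS cells, and the top 10% of cells held 66.5% and 41.6% of the UMIs. Among macrophage-like cells thinned to 3081 UMIs, with 68 and 49 cells left out, 50.9% of AKK and 71.4% of PBS cells had one (72.8% and 85.9% unthinned), against 2.31% and 7.28% of B cell-like cells. The macrophage-like medians were 212.5 and 506 CPM.

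Il1a was also lower in classes where it was scarce. Granulocyte precursor-like cells had 19.5 and 62.0 CPM (ratio 0.315, 0.250 to 0.394) and cDC2-like cells 20.7 and 48.0 CPM (0.431, 0.307 to 0.602). B cell-like cells had 9.05 and 23.3 CPM (0.388, 0.214 to 0.688), a level read here as free RNA. The Il1a ratio was under 1 in 12 of 12 classes compared and past 1.5-fold in 10 of them, whereas 6.14% to 11.5% of all genes were lower past that fold in the 12 classes. The direction turned in NK/ILC1-like cells with no doublets removed (1.11), in tumour/epithelial cell-like cells with classes from each cell's own marker score (1.11) and in neutrophil-like cells with clusters weighted alike (1.03). Of the classes past 1.5-fold, several lay near the B cell-like level. They were CD4 T cell-like (9.88 and 15.3 CPM), CD8 T cell-like (10.6 and 17.5), NK/ILC1-like (11.8 and 22.0) and tumour/epithelial cell-like cells (11.6 and 21.2). The count of classes is thus not a count of separate results. The part of free RNA was not tested.

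**Figure D1:**
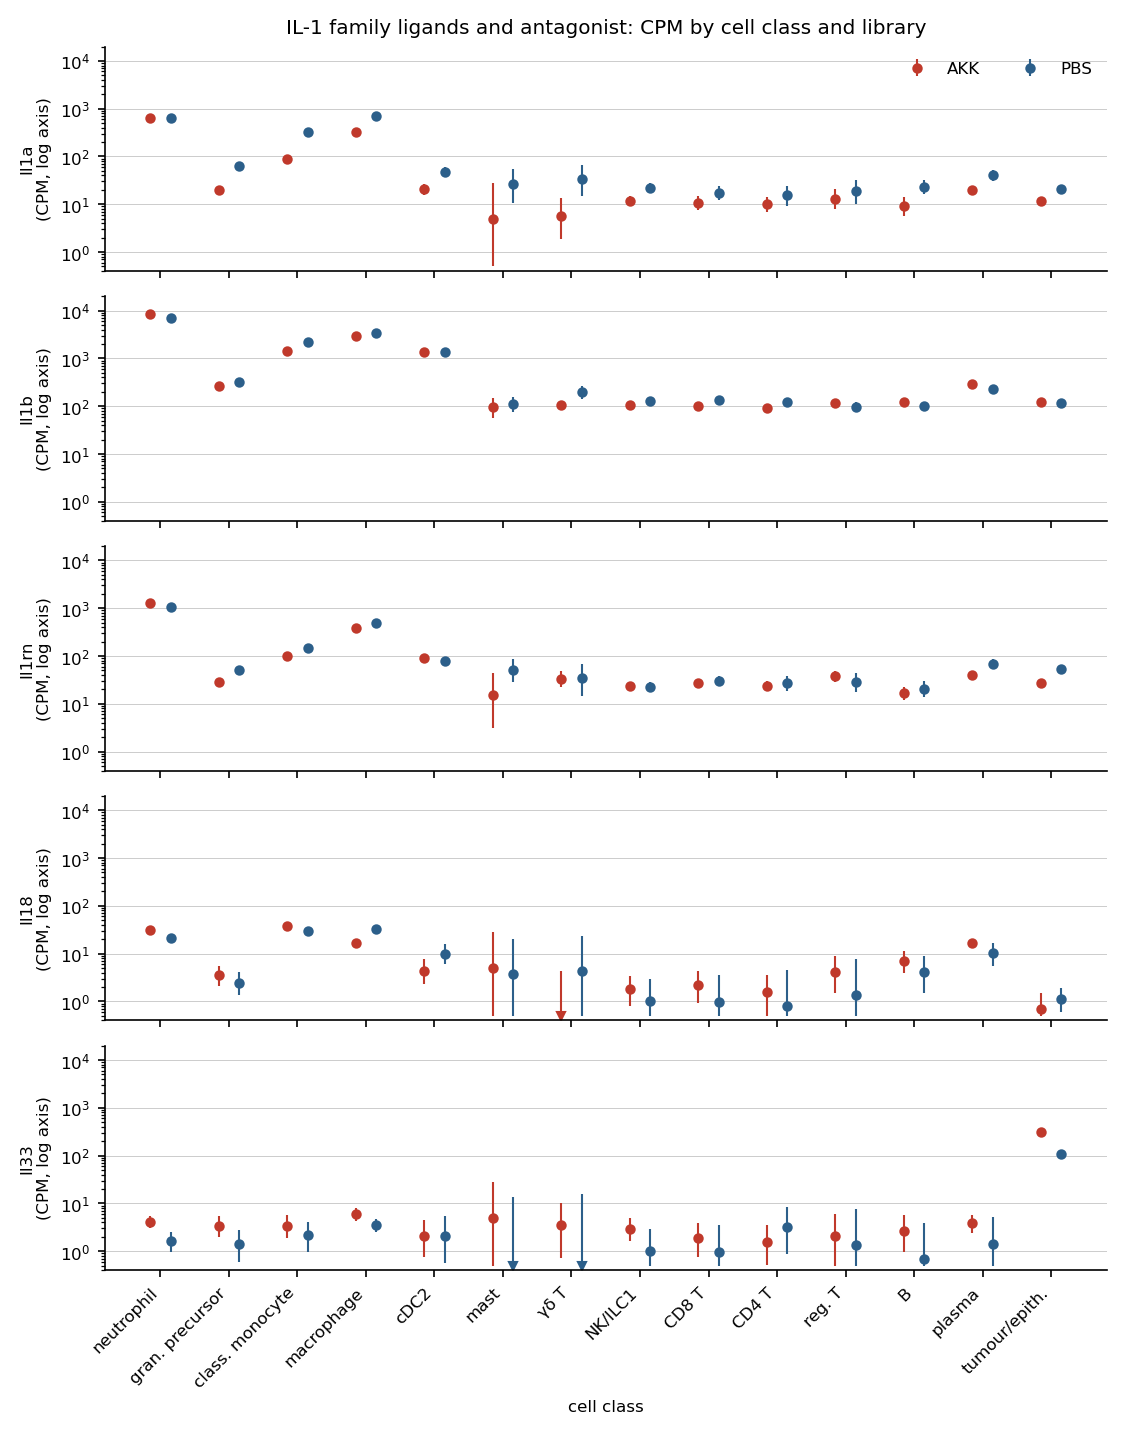
CPM of Il1a, Il1b, Il1rn, Il18 and Il33 (log axes) in 14 cell classes, AKK left and PBS right in each pair, with exact Poisson 95% intervals; a triangle marks a class with no UMI, drawn at the foot of the axis. Il1a of classical monocyte-like cells stands at 87.4 in AKK and 332 in PBS cells, and Il33 is high in tumour/epithelial cell-like cells only.

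The mix of both agonists differed accordingly. Per 100 Il1b UMIs, classical monocyte-like cells had 6.06 Il1a UMIs in AKK cells (5.46 to 6.72) and 15.1 in PBS cells (14.3 to 16.0). Macrophage-like cells had 11.4 and 20.7, and neutrophil-like cells 7.41 and 9.09. Cells with UMIs of both genes were 36.3% of AKK and 78.2% of PBS classical monocyte-like cells, unthinned, and 72.1% and 85.3% of macrophage-like cells.

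Il1rn, the antagonist, had ratios close to those of Il1b in the neutrophil-like, macrophage-like and classical monocyte-like classes but not in every class. Neutrophil-like cells had 1277 CPM of Il1rn in AKK cells and 1069.5 CPM in PBS cells (ratio 1.19, 1.17 to 1.22) and held 74.98% and 61.6% of its UMIs. Macrophage-like cells had 388 and 490.4 CPM (0.791, 0.756 to 0.826, and 1.08 with clusters weighted alike), and classical monocyte-like cells 98.5 and 150.3 CPM (0.655, 0.579 to 0.741). Per 100 Il1b UMIs, neutrophil-like cells had 15.1 Il1rn UMIs in AKK and 15.4 in PBS cells, macrophage-like cells 13.3 and 14.7, and classical monocyte-like cells 6.83 (6.18 to 7.52) and 6.82 (6.28 to 7.39). The antagonist-to-agonist mix thus stayed within counting error in monocyte-like cells while the Il1a-to-Il1b mix did not. The Il1rn ratio was further below that of Il1b in tumour/epithelial cell-like (0.513 and 1.05), plasma cell-like (0.582 and 1.25) and granulocyte precursor-like cells (0.557 and 0.822). Per 100 Il1b UMIs, tumour/epithelial cell-like cells had 22.1 Il1rn UMIs in AKK and 45.4 in PBS cells, and plasma cell-like cells 13.9 and 29.8. The tumour/epithelial cell-like Il1b level, 122.6 and 116.3 CPM, was near the 119.8 and 100.9 CPM of B cell-like cells, which should lack Il1b. The part of free RNA in that mix was not tested. With no doublets removed, the Il1rn ratio of classical monocyte-like cells was 1.03, so its direction rests on that step.

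The 6 neutrophil-like clusters did not behave alike, and their sizes differed between the libraries. Cluster 5, led by Acod1 and Rsad2, held 498 AKK and 125 PBS cells, and cluster 7, led by Cxcl3 and Cd14, held 162 and 446. Cluster 0, led by S100a9 and Csf3r, held 978 and 686 cells. Cluster 12, led by the granule genes Ngp and Camp of immature neutrophils, had the least Il1b and Il1a, with Il1a at 27.6 CPM in AKK and 97.8 CPM in PBS cells. The Il1a ratio was 0.282 in cluster 12, 0.667 in cluster 0, 0.843 in cluster 2, 0.979 in cluster 5, 1.24 in cluster 7 and 1.56 in cluster 4. The whole-class ratio near 1 is thus a sum over clusters below and above it. Il1b was higher in AKK cells of 5 clusters, with ratios of 1.05 to 1.20, and lower in cluster 12 (0.685).

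Cluster 4, led by Cxcl3 and Thbs1, had the most Il1rn, at 2816 CPM in AKK and 1704 CPM in PBS cells (ratio 1.653, 1.57 to 1.74). Il1rn was also higher in AKK cells of clusters 7 (1.37), 5 (1.29) and 2 (1.08), and lower in clusters 0 (0.842) and 12 (0.764). With the clusters weighted alike in both libraries, the neutrophil-like ratio was 1.11 for Il1b, 1.27 for Il1rn and 1.03 for Il1a.

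Il18, which lymphocytes read together with IL-12, was scarce. It stood at 37.2 CPM in AKK and 29.8 CPM in PBS classical monocyte-like cells (ratio 1.25, 0.984 to 1.59, and 0.907 by own marker score) and at 31.3 and 21.4 CPM in neutrophil-like cells (1.46, 1.24 to 1.72). Macrophage-like cells had 16.4 and 33.0 CPM, from 130 and 372 UMIs, a ratio of 0.499 (0.405 to 0.611). Nearly all of those UMIs, 128 in AKK and 371 in PBS cells, lay in macrophage-like cluster 1, where the ratio was 0.493. Macrophage-like cluster 21 held 2 Il18 UMIs in 36 AKK cells and 1 in 30 PBS cells. With both macrophage-like clusters weighted alike the ratio was 0.998, a value that leans on those few UMIs of cluster 21. B cell-like cells had 6.89 and 4.12 CPM. Macrophage-like cells held 14.4% of the AKK and 43.4% of the PBS library's Il18 UMIs, and neutrophil-like cells 41.1% and 29.7%.

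Il33 was found almost wholly in the tumour/epithelial cell-like class, where it was higher in the AKK library. That class had 316 CPM in AKK (304 to 328) and 109.6 CPM in PBS cells (103.6 to 115.8), from 2695 and 1271 UMIs, a ratio of 2.89 (2.70 to 3.09). It held 92.9% of the AKK and 92.8% of the PBS library's Il33 UMIs. An Il33 UMI was found in 88 of 113 AKK and 91 of 160 PBS cells, 77.9% and 56.9%. Thinned to 821 UMIs, the shares were 22.8% (15.02 to 32.2) and 6.94% (3.38 to 12.4), with 12 AKK and 16 PBS cells left out, and 0 in B cell-like cells. The class had a median of 77159 UMIs per AKK cell and 73737.5 per PBS cell.

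The Il33 level was uneven from cell to cell in both libraries. The median cell had 79.5 CPM in AKK cells and 11.04 CPM in PBS cells, and the top 10% of cells held 60.5% and 58.9% of the UMIs. The highest cells had 360 and 217 UMIs in the AKK library and 109 and 94 in the PBS library. The other 11 classes compared had 1.54 to 5.94 CPM in AKK and 0.686 to 3.46 CPM in PBS cells. In neutrophil-like cells, for example, Il33 was at 4.05 and 1.60 CPM from 48 and 19 UMIs, and the part of free tumour-cell RNA in these low levels was not tested. The tumour/epithelial cells here are those that passed a CD45 gate, so Il33 in the tumours as a whole was not measured.

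**Figure D2:**
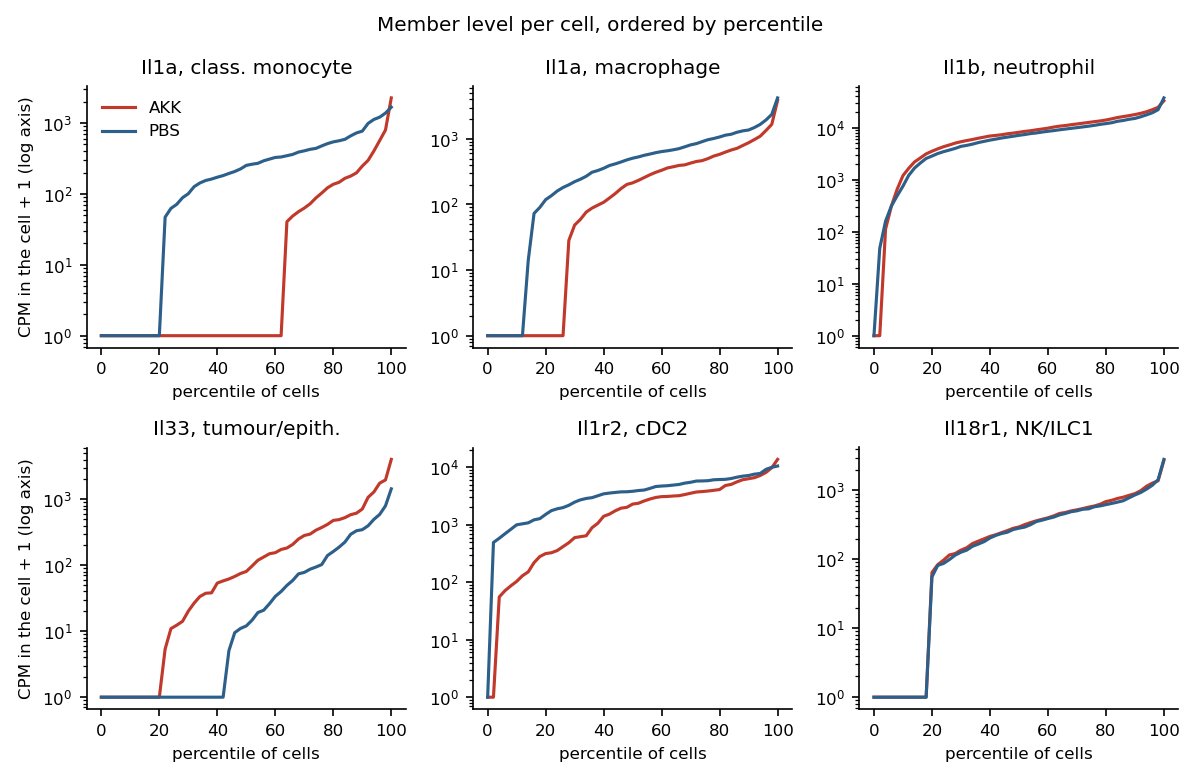
CPM per cell plus 1 (log axes) against the percentile of cells within a class, AKK in red and PBS in blue. Il1a of monocyte-like and macrophage-like cells and Il1r2 of cDC2-like cells lie lower in AKK over most of the range, Il33 of tumour/epithelial cell-like cells lies higher, and Il18r1 of NK/ILC1-like cells coincides.

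Il1r1, the signalling receptor, was highest in gamma-delta T cell-like cells, a class led by Il17a. These had 1619 CPM in AKK (1536 to 1706) and 1347 CPM in PBS cells (1202 to 1504), from 102 and 26 cells, too few PBS cells for a comparison. They held 61.8% of the AKK and 18.9% of the PBS library's Il1r1 UMIs. Over all kept cells Il1r1 was at 33.9 and 27.8 CPM, whereas in both mononuclear phagocyte classes it was lower in AKK cells. Classical monocyte-like cells had 26.6 and 84.8 CPM, from 118 and 356 UMIs (ratio 0.314, 0.252 to 0.387). Macrophage-like cells had 9.10 and 28.0 CPM, from 72 and 316 UMIs (0.325, 0.248 to 0.421).

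An Il1r1 UMI was found in 15.2% of AKK and 33.2% of PBS classical monocyte-like cells, and thinned to 4199 UMIs in 9.63% and 19.6%, against 1.19% and 2.04% of B cell-like cells. Granulocyte precursor-like cells had 37.1 and 27.5 CPM (1.35, 1.09 to 1.68, and 0.710 by own marker score), and the top 10% of those cells held 79.5% and 80.3% of the UMIs. Neutrophil-like cells were low, at 13.5 and 14.5 CPM, and tumour/epithelial cell-like cells had 21.0 and 22.5 CPM (0.933, 0.767 to 1.13).

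Il1r2, the decoy, had the most UMIs of the 5 receptors over all kept cells, 65263 in AKK cells and 59732 in PBS cells. cDC2-like cells had 2843 CPM in AKK and 3898 CPM in PBS cells (ratio 0.729, 0.707 to 0.753), with per-cell medians of 2288 and 3823 CPM. Within the largest cDC2-like cluster, which held 78 of 133 AKK and 58 of 75 PBS cDC2-like cells, the ratio was 0.893 (0.864 to 0.924), nearer to 1 than over the whole class. Neutrophil-like cells had 3271 and 2773 CPM (1.18, 1.16 to 1.20) and held 59.4% and 55.2% of the UMIs. Macrophage-like cells had 1500.4 and 1007 CPM, a ratio of 1.49 (1.45 to 1.53), just inside the 1.5-fold call. Classical monocyte-like cells had 354 and 613 CPM (0.578, 0.542 to 0.616).

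In regulatory T cell-like cells Il1r2 was at 163 CPM in AKK cells and 365 CPM in PBS cells (ratio 0.448, 0.374 to 0.535). Thinned to 3335 UMIs, with 11 and 10 cells left out, 23.9% of AKK and 47.7% of PBS cells had an Il1r2 UMI (50.8% and 58.7% unthinned). B cell-like cells at that depth had 16.5% and 20.1%, so the AKK share lay near the B cell-like one. With no doublets removed the ratio was 0.938. In CD8 T cell-like cells Il1r2 was at 67.9 and 153 CPM (0.444, 0.374 to 0.526), but the thinned shares of 18.8% and 22.0% were close to the 20.1% and 18.8% of B cell-like cells. The highest CD8 T cell-like cells had 20 and 15 UMIs in the AKK library and 45 and 45 in the PBS library. With each library clustered alone the CD8 T cell-like ratio was 1.29.

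Il1rap, the shared accessory chain, was a neutrophil transcript. Neutrophil-like cells had 1496 CPM in AKK and 1454 CPM in PBS cells and held 81.1% and 83.0% of its UMIs. The ratio was 1.03 (1.01 to 1.05), and 0.982 when scaled to the median gene, so its direction rests on the scaling. Granulocyte precursor-like cells had 167 and 186 CPM and classical monocyte-like cells 142 and 165 CPM (0.861, 0.772 to 0.961). Regulatory T cell-like cells had 67.1 and 35.1 CPM from 97 and 26 UMIs (1.91, 1.23 to 3.07), at levels near the 41.4 and 29.5 CPM of B cell-like cells.

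**Figure D3:**
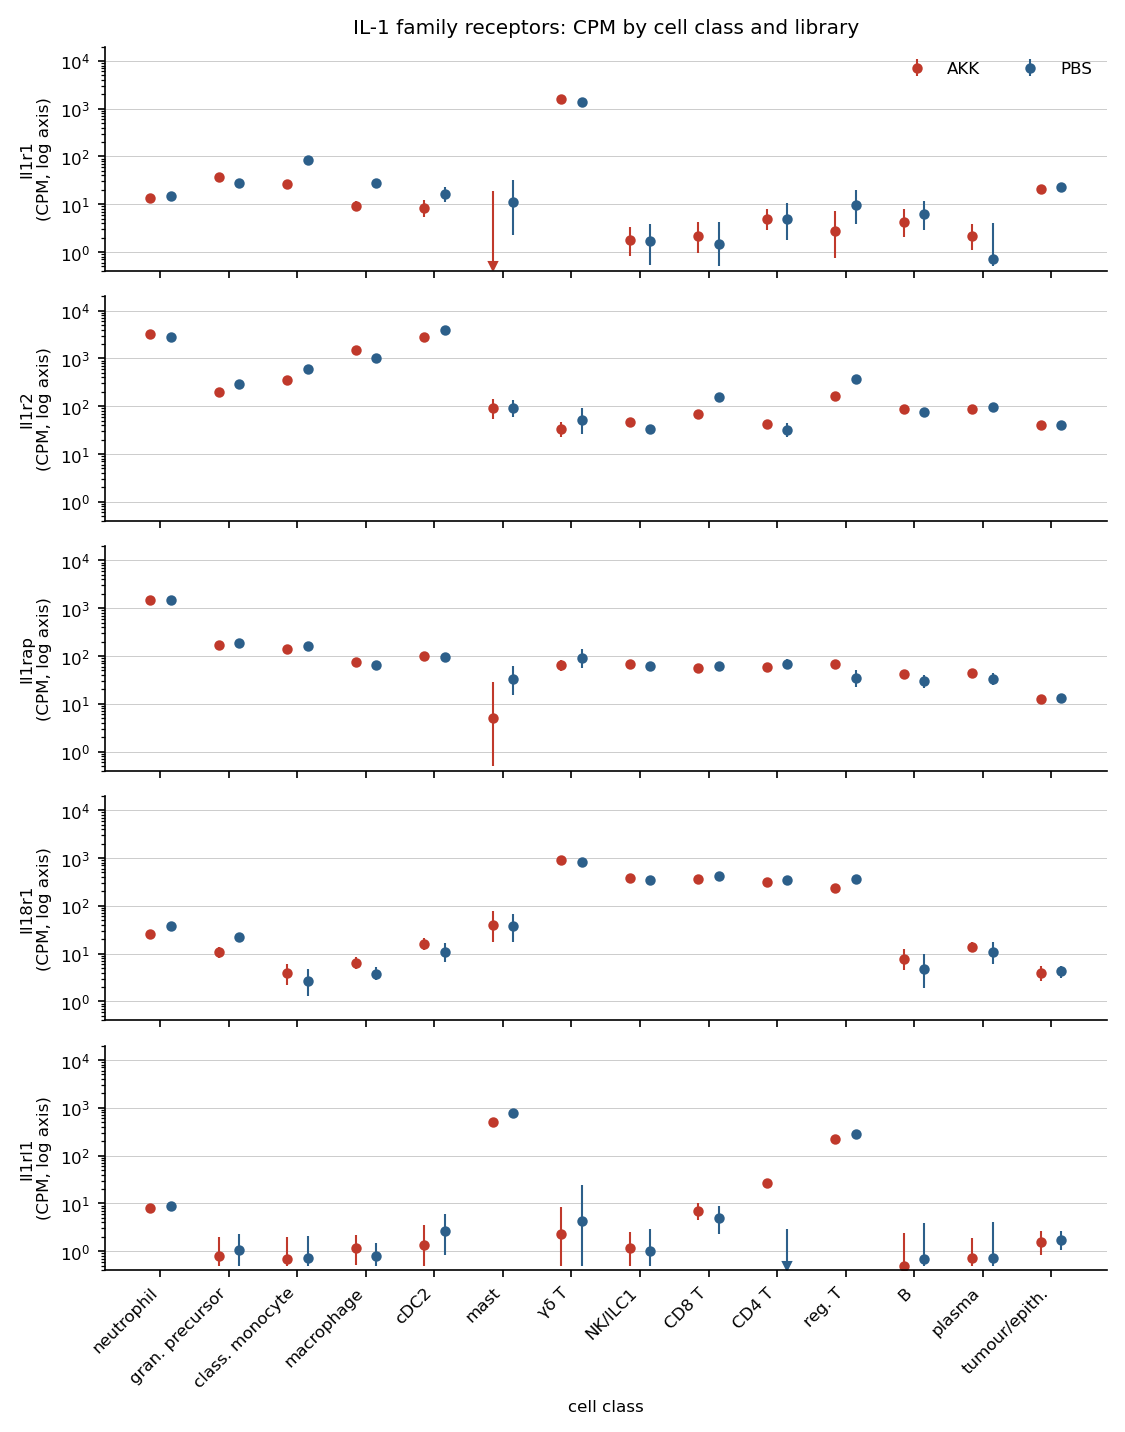
CPM of Il1r1, Il1r2, Il1rap, Il18r1 and Il1rl1 (log axes) in 14 cell classes, AKK left and PBS right in each pair, with exact Poisson 95% intervals; a triangle marks a class with no UMI. Il1r1 is highest in gamma-delta T cell-like cells, Il1rap in neutrophil-like cells and Il1rl1 in mast cell-like cells.

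Among the classes compared, Il18r1, the IL-18-binding chain, was highest in the T cell-like and NK/ILC1-like ones. Its ratio there was within 1.5-fold except in regulatory T cell-like cells. B cell-like cells had 7.75 and 4.80 CPM and plasma cell-like cells 13.8 and 10.8 CPM. An unnamed cluster nearest to CD4 T cells, with 27 AKK and 45 PBS cells, had 237 and 460 CPM (0.516, 0.388 to 0.678). Gamma-delta T cell-like cells had 919 CPM in AKK and 816.5 CPM in PBS cells. NK/ILC1-like cells, the innate lymphocytes that answer IL-18 with interferon-gamma, had 374 and 352 CPM (ratio 1.06, 0.983 to 1.14). CD8 T cell-like cells had 359.9 and 422 CPM (0.853, 0.782 to 0.930) and CD4 T cell-like cells 313 and 342 CPM (0.915, 0.816 to 1.03). In AKK cells the CD8 T cell-like interval (341 to 379.9) overlapped that of NK/ILC1-like cells (357 to 391), so their order is not resolved. Thinned to 4861 UMIs, with 56 and 26 cells left out, 70.1% of AKK and 68.1% of PBS NK/ILC1-like cells had an Il18r1 UMI (81.5% and 80.2% unthinned), against 2.72% and 1.31% of macrophage-like cells.

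Regulatory T cell-like cells were the T or NK/ILC1-like class with Il18r1 past 1.5-fold, lower in AKK cells, at 235 and 366 CPM (0.642, 0.546 to 0.757). Thinned to 3335 UMIs, 41.9% of AKK and 53.8% of PBS regulatory T cell-like cells had a UMI, intervals that overlap (32.8 to 51.4 and 41.0 to 66.3). Over all kept cells Il18r1 was at 92.1 and 63.3 CPM (1.46, 1.40 to 1.52), although the ratio was 0.642 to 1.06 in the T cell-like and NK/ILC1-like classes compared. The AKK library had more of those cells, with 534 and 283 NK/ILC1-like, 379 and 203 CD8 T cell-like and 351 and 128 CD4 T cell-like cells. Neutrophil-like cells had 25.5 and 37.6 CPM (0.679, 0.585 to 0.787).

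Il1rl1, encoding the IL-33 receptor ST2, was a gene of mast cell-like and regulatory T cell-like cells. Mast cell-like cells had 512 CPM in AKK and 773 CPM in PBS cells, from 16 and 28 cells, too few to compare. Regulatory T cell-like cells had 221 and 288 CPM, from 319 and 213 UMIs (ratio 0.767, 0.643 to 0.917, and 1.06 by own marker score), with a UMI in 56 of 128 AKK and 34 of 75 PBS cells. Thinned to 3335 UMIs, the shares were 30.8% (22.6 to 40.0) and 41.5% (29.4 to 54.4), with 0 in B cell-like cells. Basophil-like cells had 125 and 386 CPM from 36 and 2 cells.

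In CD4 T cell-like cells Il1rl1 was found in the AKK library only. It had 87 UMIs (26.8 CPM) in 15 of 351 AKK cells and 0 UMIs in 128 PBS cells. The exact lower 95% limit of the ratio was 8.83, for counting error only, and 1 cell held 30 of the 87 UMIs. The AKK share of cells with a UMI was 4.27%. A count of 0 of 128 allows a share of PBS cells with a UMI of up to 2.34%, which does not limit the share of cells that express the gene (median depth 8844 UMIs in AKK and 9110 in PBS cells). Of the 15 cells, 14 had a T cell receptor or CD3 UMI, 12 had Gata3, the type 2 helper regulator, 14 had Rora and 4 had Areg, a growth factor of ST2-positive lymphocytes. No UMI of Foxp3 or Il13 was found in them. These cells were looked at after their Il1rl1 values were seen. With 0 UMIs in PBS cells, this ratio was not followed under other ways of processing. A cluster nearest to CD4 T cells but left unnamed, with 27 AKK and 45 PBS cells, had 2 Il1rl1 UMIs in each library. The absence from PBS cells thus holds for the class as named here.

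Members past 1.5-fold were counted among those with at least 20 UMIs over both libraries in a class and read against all genes measured there. In classical monocyte-like cells 6 of 9 members were past it, 5 lower (Il1a, Il1b, Il1rn, Il1r1, Il1r2) and 1 higher (Il33, from 15 and 9 UMIs, and 0.567 by own marker score), against 25.9% of 10624 genes in either direction and 10.8% in the lower one. The members' median log2 ratio was -0.61, and that of all genes 0.13. Over 9 alternative ways of processing, classical monocyte-like Il1a and Il1r1 stayed past 1.5-fold in 9, Il1r2 in 7, and Il1b and Il1rn in 6 each. In macrophage-like cells 5 of 9 were past it, against 20.5% of genes, with Il1a, Il18 and Il1r1 lower and Il18r1 (6.32 and 3.81 CPM) and Il33 (5.94 and 3.46 CPM) higher. In neutrophil-like cells 1 of 10 was, against 17.7% of genes, namely Il33 at the low level given above.

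In cDC2-like cells 3 of 8 members were past 1.5-fold, against 22.1% of genes, all lower (Il1a, Il1r1 and Il18). Il18 there rests on 13 and 19 UMIs, and its ratio of 0.445 was 1.46 by own marker score. In regulatory T cell-like cells 3 of 7 were, against 27.7%, with Il1r2 and Il18r1 lower and Il1rap higher. In tumour/epithelial cell-like cells 3 of 9 were, against 16.0%, with Il33 higher and Il1a and Il1rn lower, the last at 27.1 CPM in AKK and 52.8 CPM in PBS cells. In NK/ILC1-like cells 1 of 6 members was past it, against 17.8% of genes, in CD8 T cell-like cells 2 of 7, against 17.7%, and in CD4 T cell-like cells 2 of 8, against 19.1%. The counts in neutrophil-like and NK/ILC1-like cells were near the background share and are not read as a result about the members. Over all kept cells 2 of 10 members were past it, against 19.8% of genes, Il33 higher (1.88) and Il1a lower (0.555).

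**Figure D4:**
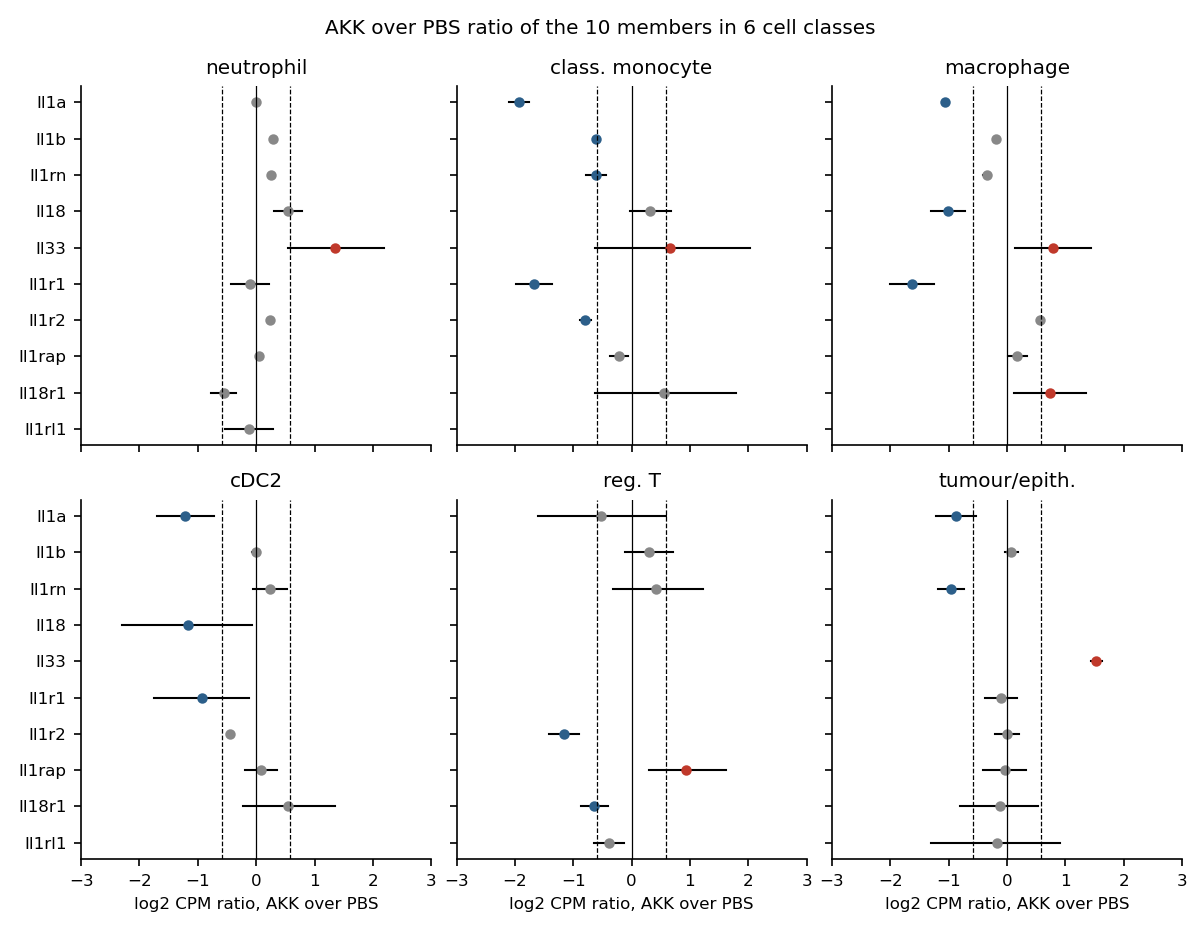
Log2 CPM ratio, AKK over PBS, of the members with at least 20 UMIs in 6 cell classes, with exact 95% intervals for counting error; dashed lines mark 1.5-fold, and blue and red points lie past it. Classical monocyte-like cells have 5 members past it on the lower side, and neutrophil-like cells have none on that side.

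The median of all measured genes stood at a log2 ratio of 0.13 in classical monocyte-like, 0.12 in macrophage-like and 0.11 in granulocyte precursor-like cells. Relative to that median, the Il1a ratio was 0.240 in classical monocyte-like and 0.445 in macrophage-like cells, Il1b was 0.598 and Il1r1 was 0.286 in classical monocyte-like cells, and macrophage-like Il1r2 was 1.38. Values of neutrophil markers and RNA quality moved with the monocyte-like result. The 8 neutrophil markers summed to 2171 CPM in AKK and 6624 CPM in PBS classical monocyte-like cells, and the median mitochondrial share was 3.32% and 4.94%. With cells over 0.5% of neutrophil marker UMIs left out, 325 AKK and 260 PBS cells remained, and the ratio was 0.253 for Il1a, 0.645 for Il1b, 0.611 for Il1rn, 0.286 for Il1r1 and 0.635 for Il1r2. The macrophage markers in those cells summed to 733 and 1142 CPM and the CD8 T cell markers to 105 and 232 CPM. In macrophage-like cells the neutrophil markers summed to 1410 CPM in AKK and 1412 CPM in PBS cells, the macrophage markers to 5378 and 8272 CPM and the CD8 T cell markers to 207 and 455 CPM. Their median depth was 12483 and 16512 UMIs. The part of these differences in the members' ratios was not tested.

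Genes that IL-1 induces through NF-κB were counted together with the brakes on that pathway. In classical monocyte-like cells 12 of 16 measured genes of this list were lower past 1.5-fold and 0 higher. The median log2 ratio of the list was -0.81, and 10.8% of all genes were lower. The neutrophil-attracting chemokine Cxcl1 was at 21.4 CPM in AKK and 104.6 CPM in PBS cells and Cxcl2 at 2095 and 5603 CPM. The cytokine Il6 was at 77.3 and 183 CPM. Lcn2, a siderophore-binding protein that neutrophils store in granules, was at 141 and 484 CPM, and the neutrophil marker values above moved with it.

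In macrophage-like cells 7 of 17 genes of that list were lower and 0 higher, against 9.91% of all genes lower, and the list's median was -0.46 (log2). Cxcl1 was at 279.9 CPM in AKK and 504 CPM in PBS macrophage-like cells, Socs3, a feedback inhibitor of cytokine signalling, at 189.9 and 333.5 CPM, and Nfkbia, the NF-κB inhibitor, at 1641 and 2734 CPM. In neutrophil-like cells 4 of 16 were lower and 0 higher, against 6.82% of genes lower (list median -0.06), and Csf3 at 3.97 and 12.2 CPM was the furthest from 1. In tumour/epithelial cell-like cells 7 of 16 were lower and 0 higher, against 6.14% of genes lower (list median -0.40), among them Cxcl1 at 83.6 and 214 CPM. These genes answer many stimuli besides IL-1, and which of them acted was not tested.

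Of the signalling chain itself, 20 genes were measured in each class. In classical monocyte-like cells 3 were lower and 1 higher, against 10.8% of all genes lower and 15.1% higher, with Peli1, a ubiquitin ligase of the IRAK complex, at 178 CPM in AKK and 489.9 CPM in PBS cells and Nfkb1 at 931 and 2019 CPM. Irak3, the brake IRAK-M, was at 88.8 and 164 CPM there and Irak4 at 64.2 and 41.2 CPM. In macrophage-like cells 3 of 20 were lower, against 9.91% of genes, led by Peli1 at 248 and 769 CPM. In neutrophil-like cells 1 was lower, against 6.82%, namely Irak3, at 217 and 358 CPM. The median log2 ratio of this list was 0.06 in classical monocyte-like, -0.05 in macrophage-like and 0.05 in neutrophil-like cells.

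Genes that sense danger and process the IL-1β precursor went both ways in classical monocyte-like cells, with 5 of 22 higher and 4 lower, against 15.1% and 10.8% of all genes. The sensor Nlrp3 was at 500.5 CPM in AKK and 948 CPM in PBS cells, the sensor Nlrc4 at 22.5 and 42.4 CPM and the protease Prtn3 at 62.9 and 116 CPM. Prtn3 is also in the granulocyte precursor marker set, and the neutrophil marker values above moved with it. Casp1, the protease that cuts the precursor, was at 50.9 and 27.6 CPM. In macrophage-like cells 1 of 22 was lower, against 9.91% of all genes, namely Nlrc4, at 22.8 and 37.0 CPM. In neutrophil-like cells 2 of 22 were higher and 2 lower, against 10.9% and 6.82% of all genes. Casp1 was at 14.4 and 8.07 CPM there and the DNA sensor Aim2 at 136 and 88.1 CPM. The adaptor Pycard was at 26.4 and 42.8 CPM and the ATP receptor P2rx7 at 17.6 and 27.3 CPM.

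Of the remaining family receptors, 3 of 4 were lower in classical monocyte-like cells, against 10.8% of all genes. Il1rl2, the IL-36 receptor, was at 10.8 CPM in AKK and 26.9 CPM in PBS cells, and Il18rap, the IL-18 accessory chain, at 25.9 and 54.1 CPM. In neutrophil-like cells 2 of 5 were lower, against 6.82% of all genes, with Il1rl2 at 17.7 and 37.5 CPM and Il1rapl1 at 4.31 and 9.58 CPM. The ligand gene Il1f9, which encodes IL-36γ, was at 9.01 and 31.9 CPM in classical monocyte-like cells. Sigirr, a receptor that dampens the family's signals, was at 27.0 and 56.7 CPM in regulatory T cell-like cells.

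Lymphocyte genes tied to IL-18 and IL-33 had a median log2 ratio of 0.27 in NK/ILC1-like, 0.35 in CD4 T cell-like, 0.45 in regulatory T cell-like and -0.05 in CD8 T cell-like cells, against 0.01 to 0.03 over all genes of those classes. Over all kept cells, where the AKK library had more of those lymphocytes, 4 of 8 were higher and 0 lower (median 0.63). Of all genes there, 8.58% were higher. In NK/ILC1-like cells 1 of 6 measured genes was past 1.5-fold, against 17.8% of all genes in either direction. It was Areg, at 14.0 CPM in AKK and 8.65 CPM in PBS cells. In CD8 T cell-like cells 1 of 6 was, against 17.7%, and it was lower, Areg again, at 28.4 and 70.7 CPM. In CD4 T cell-like cells 1 of 7 was higher, Areg at 16.4 and 8.88 CPM, and 1 lower, St8sia6 at 21.9 and 48.4 CPM, against 19.1%. In regulatory T cell-like cells 2 of 6 were higher and 0 lower, against 27.7%. Among them was Il12rb2, an IL-12 receptor chain, at 65.0 and 33.8 CPM.

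Genes with profiles most like a member's were ranked by Pearson's r of log2 (CPM + 10) over 24 profiles, the 12 classes of both libraries. The profiles share libraries and free RNA, and r is given as a description. Il1b was closest to the inflammasome sensor Nlrp3 (0.987), followed by the chemokine receptor Ccr1 (0.980). Il1a was closest to Cxcl2 (0.978) and Il1rn to Cxcl3 (0.966), both neutrophil-attracting chemokines. Il1r2 was closest to the costimulatory ligand Cd80 (0.957) and Il18 to the macrophage antigen Adgre1 (0.899). Il18r1 was closest to Sytl3 (0.979) and Il1rl1 to the regulatory T cell factor Foxp3 (0.957). Il33 was closest to Pthlh (0.994), the gene of parathyroid hormone-related protein, and Il1r1 to Msantd3 (0.886). Foxp3 and Adgre1 were among the markers used to name the classes, so their r is not separate from that naming. The 12 classes leave out mast cell-like and gamma-delta T cell-like cells, where Il1rl1 and Il1r1, in that order, were highest.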

How the data were processed

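The deposited matrices hold raw UMI counts per gene and barcode. Per the file headers they were written by Cell Ranger 7.1.0. The submitters' processing notes name Cell Ranger 5.0.1 and mm10. No source names the setting for intronic reads or the annotation release. Live CD45+ singlets had been sorted, per the labels' protocols. Barcodes with at least 200 genes and under 15% mitochondrial UMIs were kept, which removed 93 AKK and 255 PBS barcodes. Scrublet's own threshold marked 2.18% and 0.972% of barcodes; instead the highest-scoring 0.8% per 1000 barcodes were removed, 340 AKK and 187 PBS cells.

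Both libraries were clustered together without integration in scanpy 1.11.5 (2000 variable genes without the members, 30 components, 15 neighbours, Leiden resolution 1.0), and mixed clusters were split once more. Clusters were named from 27 marker sets; 48 AKK and 201 PBS cells stayed unnamed. UMIs were summed per class and library to CPM, with exact Poisson intervals for levels, exact conditional binomial intervals for ratios and exact Clopper-Pearson intervals for shares. "Past 1.5-fold" stands in for a test. The ratio intervals were tested on simulated data. Those counts were independent Poisson draws, as the intervals assume, so unevenness of UMIs from cell to cell was not covered. Sequences came from RefSeq and coordinates from GENCODE on GRCm38. The members, marker sets and 6 pathway lists (80 genes) were chosen with earlier results of these data known, and naming and scoring settings after the clusters had been seen. All members are named; of a list, at most the 4 genes past 1.5-fold with the largest ratios per class and at least 50 UMIs. Some genes with profiles like a member's are not reported here.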

Additional observations from a re-analysis of the deposited data

How the results depend on the processing

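Under the alternatives, 733 of 896 values of the 96 ratios stayed within their counting interval. The Il1rl1 ratio of CD4 T cell-like cells, with 0 PBS UMIs, was not among these ratios. In all, 83 values of 48 ratios lay on the other side of 1 from the reported ratio, 74 of them from 39 ratios reported within 1.5-fold. The other 9 came from ratios past 1.5-fold, 1 each. The Il1a ratio was 0.176 to 0.347 in classical monocyte-like and 0.384 to 0.550 in macrophage-like cells, Il33 in tumour/epithelial cell-like cells 2.71 to 2.99, and Il1b in neutrophil-like cells 1.11 to 1.25. Those past 1.5-fold that changed direction were, with no doublets removed, Il1a in NK/ILC1-like (1.11) and Il1rn in classical monocyte-like cells (1.03), and, with each library clustered alone, Il1r2 in CD8 T cell-like cells (1.29). With classes from each cell's own marker score they were Il18 in cDC2-like (1.46), Il33 in classical monocyte-like (0.567), Il1rn in granulocyte precursor-like (1.22), Il1rn and Il33 in plasma cell-like (1.37 and 0.158) and Il1a in tumour/epithelial cell-like cells (1.11). The causes were not tested. Among ratios within 1.5-fold, Il1b in CD8 T cell-like cells was 1.82 with no doublets removed (0.762 as reported), and with each library clustered alone Il1rn in cDC2-like cells was 0.562 (1.17). By own marker score Il1b (1.19) and Il1rap (1.20) in granulocyte precursor-like cells turned, and so did Il1r2 in CD4 T cell-like cells (0.508, against 1.33 as reported). Il1r2 in regulatory T cell-like cells ranged from 0.363 to 0.938 and in macrophage-like cells from 1.08 to 1.59, and Il18 in macrophage-like cells from 0.458 to 0.998.

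Counts of members past the fold moved by over 1.5 times as follows. In cDC2-like cells (3 as reported) they were 5 with each library clustered alone, 5 with cells weighted alike and 1 by own marker score. In classical monocyte-like cells (6) they were 3 with no doublets removed and 3 by own score. In neutrophil-like cells (1) they were 2 with at least 1000 UMIs per barcode, 2 by own score and 2 with scaling by the median ratio. In regulatory T cell-like cells (3) they were 5 with each library clustered alone and 6 with no filter on low counts, and in tumour/epithelial cell-like cells (3) 1 by own score. At a 2-fold threshold they were 2 in classical monocyte-like, 3 in macrophage-like (5 as reported), 1 in regulatory T cell-like and 1 in tumour/epithelial cell-like cells. Pathway genes past the fold were 14 of 33 in classical monocyte-like, 4 of 17 in macrophage-like and 6 of 14 in neutrophil-like cells at 2-fold, and 28 in macrophage-like cells with clusters weighted alike, a setting that gives no value for classes of 1 cluster. Leaving out cells with neutrophil marker UMIs was chosen after seeing the data. Of 240 thinned shares, 170 moved without thinning and 185 at 1000 UMIs. No paired analysis was possible because each group had 1 library and nothing was tested. Low-level genes (Il18, Il1r1, Il1rl1) are limited by depth.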
